A study of Mus musculus with 16 samples.

Results

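Cytoplasmic dynein is represented here by 10 genes: the heavy chain Dync1h1, the intermediate chains Dync1i1 and Dync1i2, the light intermediate chains Dync1li1 and Dync1li2, the light chains Dynll1, Dynll2, Dynlrb1 and Dynlt3, and the dynactin subunit Dctn1. They were read by 20 of the 45037 probe sets of a mouse expression array, which are all the probe sets whose only annotated gene symbol is a member. All 20 passed the filter on low values, as did 23905 probe sets in all. The genes were chosen by measured values: Dync1li1 stood out in these arrays when AbPP antisense was compared with Random antisense, and the other subunits were added by name. That comparison, and any other that uses the AbPP antisense arrays, is therefore given for the members as a description with no p, and counts of calls there stand beside the share over all probe sets with nothing read from them.

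Dynein walks along microtubules towards their minus ends, and in neurons it carries endosomes, signalling complexes and worn organelles from axon and dendrite back to the cell body. A pair of heavy chains supplies the motor, intermediate and light intermediate chains join it to cargo, and light chains bind the intermediate chains. Dynactin, whose largest subunit p150 is encoded by Dctn1, is needed for most of its long-distance transport.

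The data are from the hippocampus of 16 male mice aged 12 months, 1 mouse per array, in 4 groups of 4. Mice of the senescence-accelerated line SAMP8 have memory deficits at this age. One group was untreated SAMP8, and the other SAMP8 groups were given an oligonucleotide intravenously, either of random sequence (Random antisense) or directed at the amyloid beta precursor protein (AβPP in the labels, written AbPP here; AbPP antisense). The fourth group, Control, was an untreated 50% backcross of SAMP8 with CD-1 mice and had no memory deficits, so the Control mice also carry SAMP8 genome. For Random antisense 1 the title, source and description name the random oligonucleotide but the treatment label names none, and the array was kept with Random antisense. All values are the deposited log2 values, and levels of different genes are not compared, because probes differ in brightness; a gap between probe sets of 1 gene is compared only across arrays. In bulk tissue, fewer cells of a type and less RNA per cell cannot be told apart.

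Some arrays stood apart. For the beta-actin control probe sets the difference of 3' minus 5' signal, which rises when RNA is degraded, was 1.60, 1.60, 1.21 and 3.89 on AbPP antisense 1 to 4, between 1.21 and 1.32 in Random antisense and between 0.84 and 1.36 on the 8 untreated arrays. AbPP antisense 4 and Control 4 correlated least with the rest, at a median of 0.905 and 0.922, against medians between 0.958 and 0.989 on all others. Of 8 markers of hippocampal neurons, 7 lay above the filter on all 16 arrays, and the mean of the list was 9.28, 7.66, 9.33 and 8.06 on AbPP antisense 1 to 4 against 8.51 to 8.88 in Random antisense, with 2 of 8 genes higher. Tissue markers also differed between the treated groups. The mean of the choroid plexus list was 4.53 to 6.70 after AbPP antisense and 7.06 to 8.26 after Random antisense, with 0 of 7 genes higher. The blood and leukocyte list lay at 4.59 to 6.74 against 3.50 to 3.93, with 6 of 6 genes on the array higher, and reached 9.17 on Control 4. These counts include 2 genes near the floor: Aqp1 of the choroid plexus list, above the filter on 1 array, and Hba-a1 of the blood list, on 0. The thalamus list, with 0 of 5 genes higher, was 7.90, 10.03, 7.76 and 9.63 on AbPP antisense 1 to 4 against 9.05 to 9.68. The microglia list lay at 9.12 to 9.56 against 8.86 to 9.15, with 5 of 6 genes higher. The neuron list ranged from 12.68 to 13.09 against 13.06 to 13.16, with 3 of 7 genes higher. Over all 10 lists, 1 ependymal and 1 blood gene lay below the filter on all 16 arrays. The part of RNA quality and of tissue makeup in the differences below was not tested. Values without an array, or with the beta-actin covariate, are given beside some of them as a description. Without AbPP antisense 4 the group still holds AbPP antisense 1 and 2, with beta-actin differences of 1.60, and arrays low in the choroid plexus list. App, the gene the antisense is directed at, differed between AbPP antisense and Random antisense by -0.22 (SE 0.13) on probe set 1427442_a_at and by -1.05 (SE 0.43) on 1420621_a_at, the latter reading 10.59 on AbPP antisense 4 and 12.81 to 13.35 on the other AbPP antisense arrays.

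Dync1li1 encodes a light intermediate chain, the subunit that binds the activating adaptors through which dynein takes hold of its cargo. Its only probe set, 1424947_at, read 9.43, 9.45, 9.69 and 9.52 in Control. The untreated SAMP8 arrays read 9.78, 9.59, 9.54 and 9.98, and those of Random antisense 9.57, 9.88, 9.63 and 9.94. In AbPP antisense it read 7.44, 6.41, 6.83 and 6.02. The 12 arrays without AbPP antisense thus lay within 0.55 log2 of each other, and the highest AbPP antisense array lay 1.99 below the lowest of them. The AbPP antisense mean was 6.68 ± 0.61 (SD, n = 4) and the Random antisense mean 9.76 ± 0.18, a difference of -3.08 log2 (SE 0.23), or 8.46-fold lower. Against untreated SAMP8, at 9.72 ± 0.20, the difference was -3.05 (8.27-fold lower). In order of level the groups ran AbPP antisense, Control (9.52 ± 0.11), untreated SAMP8 and Random antisense, and the arrays of the last 3 overlapped.

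The Dync1li1 values of the AbPP antisense arrays are given here beside their beta-actin differences. AbPP antisense 3, whose beta-actin difference of 1.21 lay in the range of Random antisense, lay at -2.93 log2 from the Random antisense mean. Its choroid plexus list mean was 5.73, below the Random antisense range of 7.06 to 8.26. AbPP antisense 4, with the largest beta-actin difference, lay at -3.74 from it, and AbPP antisense 1 and 2 lay at -2.32 and -3.34. Without AbPP antisense 4 the difference was -2.86, and with the beta-actin measure as a covariate it was -2.81. On that measure AbPP antisense 4 stood at 3.89 and all other arrays at 0.84 to 1.60. The part of RNA quality in the Dync1li1 values was not tested. Because a single probe set reads Dync1li1, no second one on the array shows whether other stretches of the transcript moved with it.

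**Figure D1:**
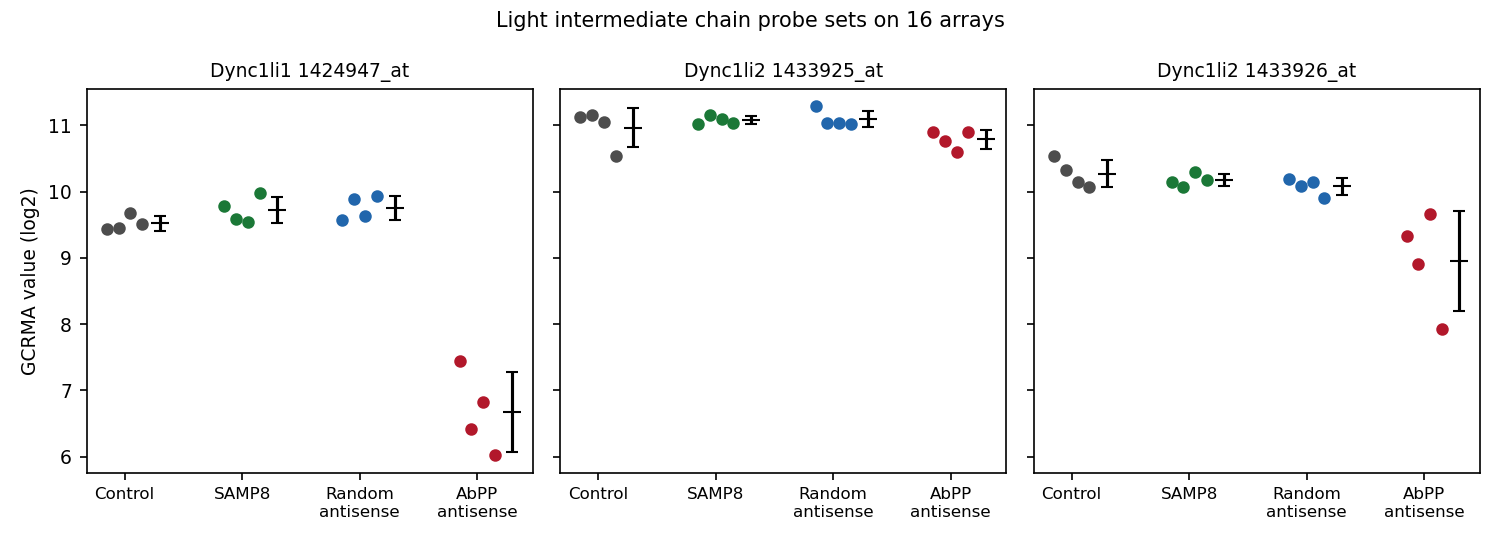
GCRMA values (log2) of the probe sets of Dync1li1 and Dync1li2 by group. Each point is 1 array in replicate order, and the bars beside them are the mean and SD of 4 arrays. The 4 AbPP antisense arrays lie between 6.02 and 7.44 for Dync1li1 and below all other SAMP8 arrays for both Dync1li2 probe sets; levels of different probe sets are not comparable.

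Dync1li2, the other light intermediate chain, is carried by a separate population of dynein complexes. Its probe set 1433925_at read 10.90, 10.76, 10.60 and 10.90 in AbPP antisense and 11.29, 11.03, 11.04 and 11.02 in Random antisense. The untreated SAMP8 arrays read 11.03, 11.15, 11.09 and 11.04, and those of Control 11.13, 11.15, 11.06 and 10.53. The highest AbPP antisense array was below the lowest of the 8 other SAMP8 arrays, by a small margin. The means differed by -0.31 (SE 0.14) from Random antisense and by -0.29 from untreated SAMP8.

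The second probe set of Dync1li2, 1433926_at, showed a larger difference. It read 9.33, 8.92, 9.66 and 7.92 in AbPP antisense and 10.19, 10.08, 10.14 and 9.91 in Random antisense. The untreated SAMP8 arrays read 10.15, 10.07, 10.29 and 10.18, and those of Control 10.54, 10.33, 10.15 and 10.07. Here the highest AbPP antisense array was below the lowest of the other 12. The difference from Random antisense was -1.12 (SE 0.27), and that from untreated SAMP8 was -1.21.

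The gap between these probe sets of the same gene was wider on AbPP antisense 1, 2 and 4 than on any Random antisense array. It was 1.57, 1.84, 0.93 and 2.97 on AbPP antisense 1 to 4 and 0.90 to 1.12 in Random antisense. AbPP antisense 3 thus had both a Random-like gap and a Random-like beta-actin difference. With the beta-actin measure as a covariate the difference of 1433926_at from Random antisense was -0.67, and that of 1433925_at was -0.39. Without AbPP antisense 4 they were -0.78 and -0.34.

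**Figure D2:**
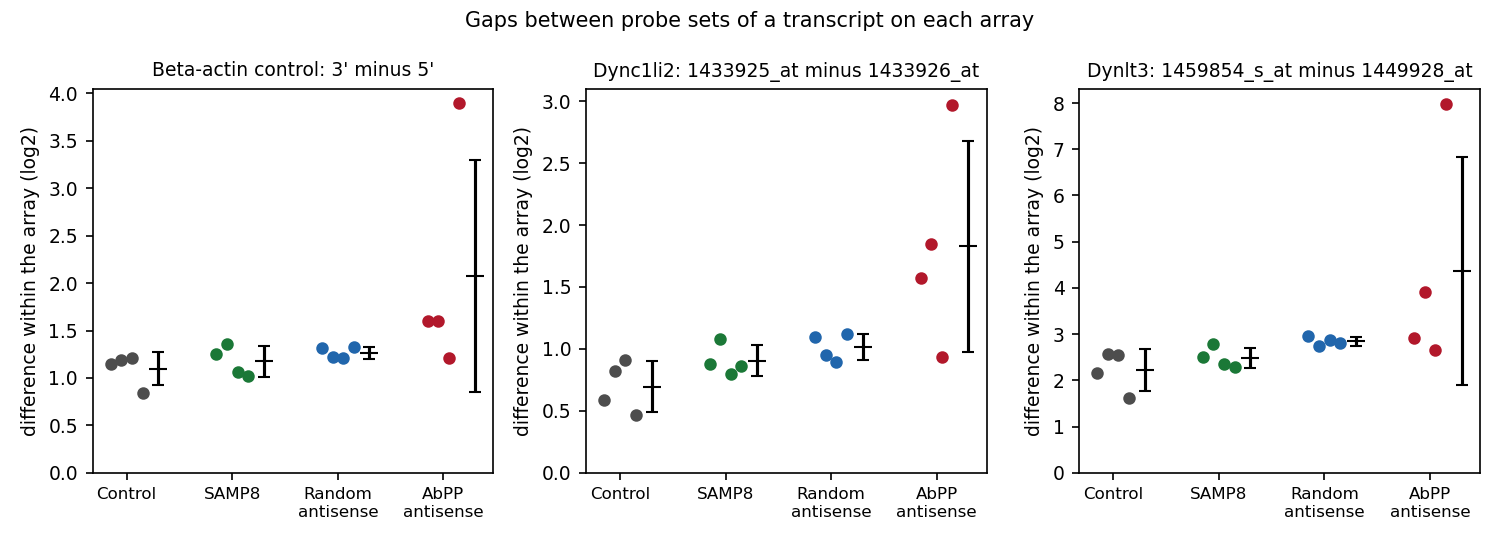
Difference (log2) on each array between the 3' and 5' beta-actin control probe sets, between the probe sets of Dync1li2 and between 2 probe sets of Dynlt3, by group. Points are arrays in replicate order with the mean and SD of 4 beside them. AbPP antisense 4 is highest in all 3 panels, at 3.89, 2.97 and 7.99. AbPP antisense 1 lies above Random antisense for beta-actin and Dync1li2 and within its range for Dynlt3.

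Dync1h1 encodes the heavy chain, which holds the motor domain. Probe set 1416648_at read 11.54, 11.74, 11.49 and 11.92 in AbPP antisense and 11.85, 11.68, 11.65 and 11.71 in Random antisense, a difference of -0.05 (SE 0.14) with overlapping arrays. The dim probe set 1439950_at read 6.82, 6.51, 6.96 and 7.05 against 7.32, 7.02, 7.36 and 7.04. These groups barely overlapped, and their means differed by -0.35 (SE 0.14). Untreated SAMP8 lay at 7.06 to 7.16 on 1439950_at, above all 4 AbPP antisense arrays (-0.28).

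The intermediate chains, which bind dynactin p150 directly, showed smaller differences. Dync1i1, the form found chiefly in neurons, read 10.74, 10.64, 10.73 and 10.53 in AbPP antisense and 10.75, 10.77, 10.76 and 10.56 in Random antisense (-0.05, SE 0.16). Dync1i2, the widely expressed form, read 11.56, 11.70, 11.41 and 10.67 against 11.27, 11.28, 11.23 and 11.19 (0.09, SE 0.17). For Dync1i2 the first 3 AbPP antisense arrays lay above every Random antisense array and AbPP antisense 4 lay below them. Without AbPP antisense 4 its difference was 0.31, and with the beta-actin covariate 0.35.

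Dynll1 and Dynll2 encode the LC8 light chains, small dimers that also serve many partners outside dynein. All but the dimmest of the 4 probe sets of Dynll1 split the AbPP antisense mice. Probe set 1448682_at read 13.23 and 13.32 on AbPP antisense 1 and 3 but 12.38 and 12.10 on 2 and 4, around a Random antisense range of 12.70 to 13.04. The same split held on 1417339_a_at, with 14.70 and 14.77 against 14.22 and 14.21, and on 1456125_a_at, with 14.20 and 14.18 against 13.74 and 13.75. On the dim 1440278_at AbPP antisense 2 was lowest, at 6.0, and the other 3 read 7.10, 7.03 and 7.50. The mean differences of the 4 probe sets from Random antisense lay between -0.13 and 0.31, smaller than the spread between AbPP antisense mice, whose SD was 0.61 on 1448682_at against 0.15 in Random antisense. Dynlt3 showed the same split, on 1420614_at with 12.60 and 11.68 against 11.03 and 10.38. On Dynlt3 1449929_at the readings were 12.44 and 12.41 against 12.11 and 12.10. The hippocampal neuron list was likewise higher, and the thalamus list lower, on AbPP antisense 1 and 3 than on 2 and 4. The part of the tissue behind these lists in the Dynll1 and Dynlt3 values was not tested.

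Dynll2 read 13.59, 13.92, 13.40 and 13.04 in AbPP antisense on 1418258_s_at, against 13.67 to 13.72 in Random antisense (-0.21, SE 0.16). On 1418371_at it read 9.22, 9.65, 9.17 and 9.70 against 9.56 to 9.84 (-0.27, SE 0.15). On both probe sets the groups overlapped, and without AbPP antisense 4 the difference on 1418258_s_at was -0.06. Against untreated SAMP8, at 9.78 to 10.05, all 4 AbPP antisense arrays of 1418371_at were lower (-0.48).

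Dynlrb1 encodes a roadblock light chain, and its probe set 1428257_s_at read 12.35, 12.63, 12.59 and 12.04 in AbPP antisense against 12.42 to 12.61 in Random antisense (-0.13, SE 0.15, and -0.01 without AbPP antisense 4). Dynlt3 encodes a Tctex-type light chain and is read by 4 probe sets. On 1459854_s_at and 1449929_at the differences from Random antisense were 0.09 and 0.06 (SE 0.13 and 0.14). On 1420614_at the AbPP antisense arrays spread from 10.38 to 12.60, around a Random antisense range of 11.32 to 11.49, and the means differed by 0.02. On 1449928_at they read 10.14, 8.85, 10.35 and 5.18 against 10.01, 10.15, 10.04 and 10.02. AbPP antisense 1 and 3 lay within or above the Random antisense range there, AbPP antisense 2 and 4 below them, and the difference of -1.43 (SE 0.78) was -0.28 without AbPP antisense 4 and 0.08 with the beta-actin covariate.

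Dctn1 overlapped between AbPP antisense and Random antisense on both probe sets. It read 11.31, 11.74, 11.59 and 11.87 on 1435414_s_at against 11.65 to 11.76 (-0.09, SE 0.13), and 10.08, 10.31, 10.20 and 9.97 on 1422521_at against 10.21 to 10.53 (-0.23, SE 0.12).

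Across the 20 probe sets, 1 lay past the threshold between AbPP antisense and Random antisense (limma, adjusted p under 0.05). It was that of Dync1li1, as its choice by this contrast had fixed, where 0.0837% of all tested probe sets passed, 20 in number. The groups did not overlap on 3, those of Dync1li1 and Dync1li2, all lower after AbPP antisense, where 7.58% of all tested probe sets did not overlap. The median of the 20 was -0.11 with 14 negative, and the median of all tested probe sets was 0.01. Since this contrast chose the genes, nothing is read from these counts. By size of difference Dync1li1 ranked 8 of 23905. The probe sets nearest the threshold were those of Mzt1 (-1.38) and Lasp1 (-1.465) just inside it and that of Nudt4 (-1.21) just outside. Between AbPP antisense and untreated SAMP8, which uses the same AbPP antisense arrays, 1 of 20 passed where 0.289% of all did. There 5 did not overlap where 7.96% of all did not, and the median of the 20 was -0.18. Leaving out AbPP antisense 3 adds 1433926_at of Dync1li2 to those passing in both comparisons, where 3.75% and 5.39% of all probe sets passed. Leaving out Control 4 and AbPP antisense 4 together also adds it in both, where 0.838% and 1.71% of all passed. Leaving out AbPP antisense 4 alone adds it in the comparison with untreated SAMP8, where 0.42% of all passed. In a fit of only the 8 AbPP and Random antisense arrays 0 of 20 passed in limma, as did 0 of all probe sets, of which 1995 had an unadjusted p under 0.05.

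**Figure D3:**
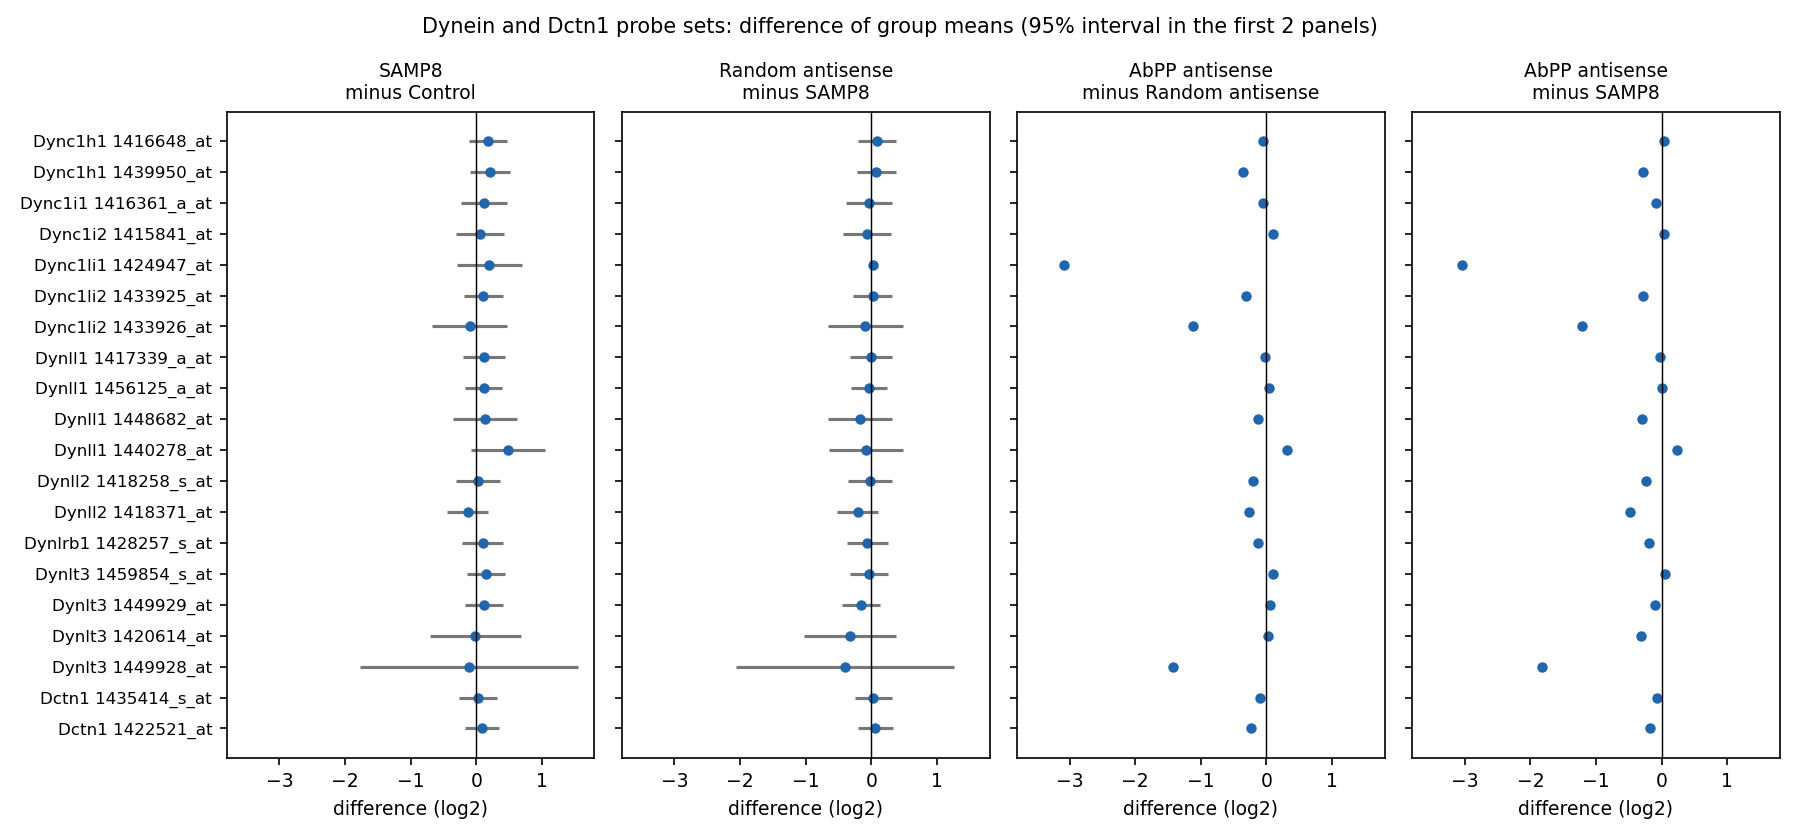
Difference of group means (log2) for each of the 20 probe sets in the 4 comparisons, with the 95% interval of the limma fit in the first 2 panels (none for Dync1li1 in the second) and no interval in the others, whose AbPP antisense arrays chose the genes. The intervals rest on a spread pooled over the 4 groups. Dync1li1 lies at -3.08 and -3.05 in the last 2 panels, and all first-panel intervals include 0.

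The comparison of untreated SAMP8 with Control asks whether the memory-impaired line differs in its dynein. Its group means share no array with the comparison that chose the genes. Its SE, intervals and p do, because the spread is pooled over all 4 groups. None of the 20 probe sets passed the test: 0 were called in limma, 0 had an unadjusted p under 0.05, and the lowest adjusted p was 0.999. Over all tested probe sets 0.36% passed. Dync1li1 was 0.20 log2 higher in SAMP8 (SE 0.23, 95% interval -0.29 to 0.69, adjusted p = 0.999 in limma). The interval leaves room for a change of up to 0.69 but not for one of the size seen after AbPP antisense. Its width holds the AbPP antisense spread, with an SD of 0.61 against 0.11 in Control and 0.20 in SAMP8. Dync1li2 differed by 0.11 (95% interval -0.18 to 0.40) and -0.10 (-0.67 to 0.47), and Dync1h1 by 0.18 (-0.11 to 0.47) and 0.21 (-0.09 to 0.51).

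The largest of these differences was on the dim Dynll1 probe set 1440278_at, which read 6.92, 6.52, 6.59 and 6.68 in SAMP8 and 6.45, 6.31, 6.45 and 5.57 in Control. The 4 SAMP8 arrays lay above the 4 Control arrays, with a difference of 0.48 (SE 0.26). It was the only one of the 20 without overlap, where 4.81% of all tested probe sets had none, and the other Dynll1 probe sets differed by 0.11 to 0.14. Of the 20 differences 16 were positive, with a median of 0.11, while 58.4% of all tested probe sets were positive with a median of 0.04. This lean rests on Control 4, which was the lowest Control array on most members: without it 9 of 20 were positive, the median was -0.01 and the largest difference 0.27. The median of all tested probe sets was then 0.00.

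Random antisense and untreated SAMP8 differ in having received an oligonucleotide of random sequence. This comparison shares its Random antisense arrays with the one that chose the genes. No probe set of the array passed in limma (0% of all tested, with 267 at an unadjusted p under 0.05), and 0 of the 20 members had an unadjusted p under 0.05. Dync1li1 is given without a test, at a difference of 0.03 (SE 0.23). The other members differed by -0.40 to 0.08, with adjusted p = 1 in limma.

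Random antisense and untreated SAMP8 did not overlap on 2 of the 20, both of Dynlt3, a share close to the 8.1% of all tested probe sets. Probe set 1449928_at read 10.01 to 10.15 after Random antisense and 10.47, 10.21, 10.55 and 10.60 in SAMP8 (-0.40, SE 0.78). Probe set 1449929_at read 12.15 to 12.25 against 12.39, 12.37, 12.39 and 12.32 (-0.16, SE 0.14). Their SE is pooled over the 4 groups and so also holds the wide AbPP antisense spread.

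Of 74 genes that work with dynein or beside it, 51 were tested by their brightest probe set, and 0 of 51 passed in any of the 4 comparisons in limma. Over all genes 0.227% passed between SAMP8 and Control, 0% between Random antisense and SAMP8, 0.0262% between AbPP antisense and Random antisense and 0.0959% between AbPP antisense and SAMP8. An unadjusted p under 0.05 in limma was found for 1, 0, 4 and 9 of the 51 in the same order. Over all 23905 tested probe sets it was found for 1047, 267, 2935 and 3507, and nothing is read from the counts of the 51. The genes named next with a difference between SAMP8 and Control are the 3 of smallest p per list in that comparison, each with adjusted p = 0.999 in limma. Of the 51 differences between SAMP8 and Control, 36 were positive with a median of 0.10. Over all genes 60.2% were positive with a median of 0.04. Without Control 4 there were 22 of 51, with a median of -0.02, and 51.2% of all tested probe sets were positive. Genes named for AbPP antisense are the extremes of their list, picked after their values were seen, with no test.

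Among 9 tested genes of dynactin, the differences of SAMP8 from Control ran from -0.38 to 0.34 around a median of 0.03. Dctn3, which encodes the p24 subunit of the shoulder, read 11.36, 11.84, 11.51 and 11.23 in SAMP8 and 11.28, 11.00, 11.25 and 11.04 in Control (0.34). The actin-capping subunits Capza1 and Capzb, which sit at the end of the dynactin filament, differed by -0.38 and -0.11, and by -0.13 and -0.03 without Control 4. After AbPP antisense the 9 genes differed from Random antisense by -0.46 to 0.15, with the lowest value on Dctn5, a subunit of the pointed end, which was -0.16 without AbPP antisense 4.

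Of the other light chains 2 were tested. Dynlrb2, a roadblock chain also linked to ciliary dynein, read 6.72, 6.48, 7.02 and 6.82 in SAMP8 and 6.82, 6.64, 6.34 and 5.0 in Control (0.56, and 0.16 without Control 4). It read 5.10, 4.93, 5.76 and 4.89 in AbPP antisense and 5.75, 5.66, 6.41 and 6.66 in Random antisense, a difference of -0.95, and it differed by -1.59 from SAMP8. The choroid plexus markers given above moved the same way. The mean of the ependymal list was 4.13 to 4.73 in AbPP antisense and 4.59 to 4.72 in Random antisense, with 2 of 5 genes higher. The part of either tissue in the Dynlrb2 difference was not tested. Dynlt1f, a Tctex-type chain, differed by 0.07 between SAMP8 and Control (0.25 without Control 4) and by 0.10 between AbPP antisense and Random antisense.

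The 19 tested regulators and adaptors, which switch dynein on or tie it to cargo, had a median difference of 0.10 between SAMP8 and Control. Ninl, a centrosomal adaptor, read 5.40, 5.63, 5.70 and 4.92 in SAMP8 and 3.27, 4.99, 5.40 and 3.70 in Control (1.07), with overlapping arrays. Nde1, a partner of LIS1, differed by -0.48, and Bicdl1, a Bicaudal-type adaptor, by 0.21; without Control 4 the values were -0.21 and 0.10. Between AbPP antisense and Random antisense the 19 had a median of 0.04. They ran from -0.59 for Mapk8ip1, a scaffold that links cargo to motors, to 0.86 for Hook2, a Hook-family cargo adaptor. Without AbPP antisense 4 these genes differed by -0.37 and 0.69. Hook2 lay near the filter of 4 log2, at 4.61, 5.27, 4.63 and 5.50 in AbPP antisense and 3.98 to 4.335 in Random antisense.

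Pafah1b1 encodes LIS1, a regulator that favours the active form of dynein, and was singled out after its values were seen. Its brightest probe set differed by -0.41 between AbPP antisense and untreated SAMP8, and by -0.24 without AbPP antisense 4. Probe set 1417086_at read 10.42, 10.01, 10.17 and 9.75 in AbPP antisense, and the untreated SAMP8 arrays 10.99, 11.03, 10.92 and 11.05, with 10.64 to 10.84 after Random antisense. All 4 AbPP antisense arrays were the lowest of the 16, and the differences were -0.91 from SAMP8 and -0.67 from Random antisense. Probe set 1460199_a_at differed by -0.74 from SAMP8. Both lay past the limma threshold against SAMP8, while the brightest probe set, which stands for the gene in the count of 51, did not. The remaining 2, both dimmer, differed by 0.01 and 0.61, and by 0.34 and 0.40 without AbPP antisense 4.

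The 13 tested kinesins and kinesin light chains, the motors that run the opposite way along microtubules, had a median difference of 0.15 between SAMP8 and Control. Klc1, Kif5a and Kif3c, which serve axonal transport, differed by 0.31, 0.13 and 0.18, and by 0.16, 0.04 and -0.01 without Control 4. A second Klc1 probe set, 1428881_at, also named after its values were seen, read 7.23, 7.28, 7.49 and 7.54 in SAMP8 and 6.84, 6.40, 6.74 and 6.94 in Control. It was 0.65 higher (SE 0.12, adjusted p = 0.0298 in limma) and passed under 14 of 28 other settings, with adjusted p from 0.00195 to 0.285 in limma. The third Klc1 probe set, 1448541_at, differed by 0.13 between SAMP8 and Control. After AbPP antisense the brightest probe sets of the kinesins differed from Random antisense by -1.08 for Kif1a, the carrier of synaptic vesicle precursors, to 0.31 for Kif1c. Without AbPP antisense 4 these were -0.65 and 0.03, and a second Kif1a probe set differed by -0.22 with all arrays and by -0.29 without that array. Klc1 1448541_at, picked after its values were seen, read 8.61, 8.81, 9.98 and 4.18 in AbPP antisense and 9.99 to 10.27 in Random antisense. It differed by -2.28 (SE 0.83), and by -1.04 without AbPP antisense 4.

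Of the ciliary and axonemal dyneins, which drive transport in cilia and the beating of cilia, 8 of 21 listed genes were tested. Wdr60, Dync2li1 and Dnah1 differed by 0.34, 0.25 and 0.38 between SAMP8 and Control, and by 0.22, 0.14 and 0.14 without Control 4. Dnah1 lay near the filter of 4 log2, at 2.95 to 3.995 in Control and 3.83 to 4.36 in SAMP8. Dync2li1, the light intermediate chain of the ciliary dynein, differed by -0.07 between AbPP antisense and Random antisense, against the -3.08 of Dync1li1.

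The profiles nearest to that of Dync1li1 over the 16 arrays were sought among all tested probe sets with 1 gene symbol, by the root mean square difference between profiles centred on their own mean. The profile of Dync1li1 itself had a root mean square of 1.33 about its mean. The nearest genes were Ube2b (0.41), Nudt21 (0.57), Kcna6 (0.58), Ipcef1 (0.58) and Kcnab3 (0.63). Ube2b encodes a ubiquitin-conjugating enzyme, Nudt21 a subunit of the complex that selects polyadenylation sites, and Kcna6 and Kcnab3 a potassium channel subunit and an auxiliary subunit. All 5 were lower after AbPP antisense than after Random antisense, with differences of -3.18, -3.46, -2.14, -2.63 and -2.21 log2 in the order named, which follows from how they were sought.

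The probe set of Ube2b in this group, 1430177_at, read 5.21, 4.55, 5.21 and 3.23 in AbPP antisense and 7.62, 7.63, 8.0 and 7.67 in Random antisense. Its 3 other tested probe sets differed by -0.40, -0.28 and 0.04. Nudt21 had 2 probe sets with large differences, 1455966_s_at (-3.46) and 1437213_at (-4.02), and 2 without, 1417681_at (-0.31) and 1428339_at (0.02). Within these genes the difference was thus that of some probe sets and not of others, which cannot be looked at for Dync1li1 with its single probe set.

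**Figure D4:**
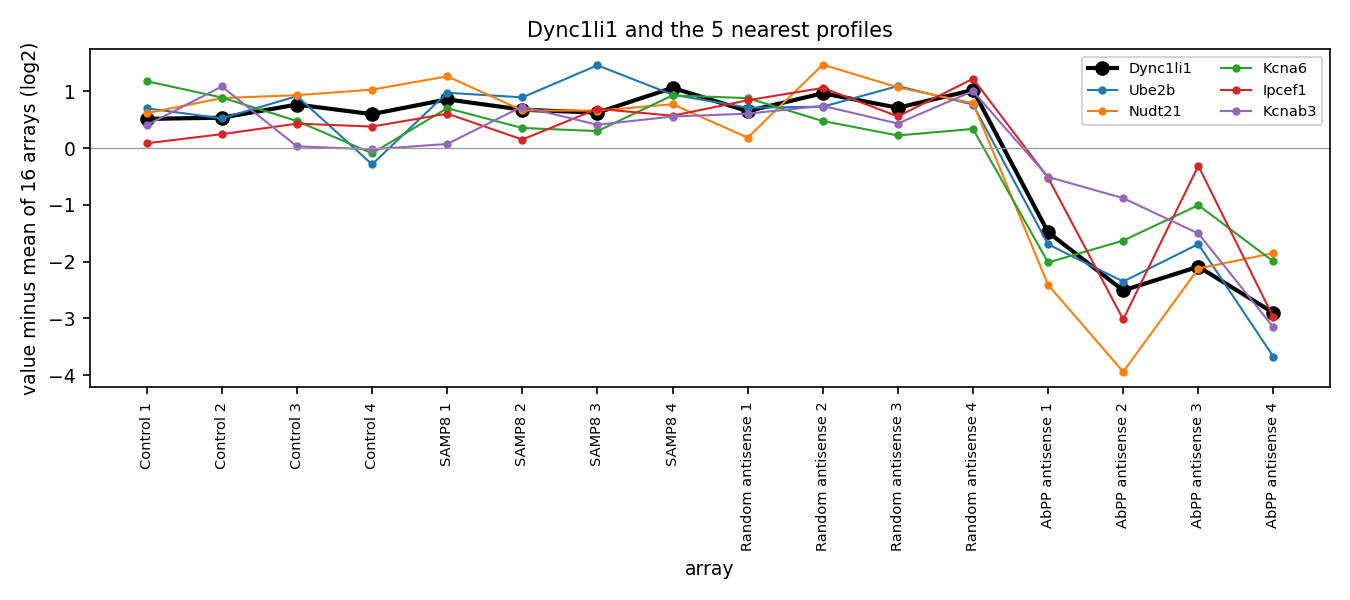
Value minus the mean of 16 arrays (log2) on each array for Dync1li1 (thick black line) and the 5 genes of nearest profile. All 6 lie lowest on the 4 AbPP antisense arrays; the genes were sought for this likeness.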

How the data were processed

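Per the labels, cRNA from 4 µg of total hippocampal RNA of 1 mouse was hybridised to each array. Per the submitters' processing notes, the authors made the deposited log2 values with GCRMA (version not given in the sources used here). Scanned intensities were not used here.

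Of 45101 probe sets, 64 controls were removed; 34945 of the rest have 1 gene symbol, 932 several and 9160 none. Current names through Entrez identifiers were the same for all 20 probe sets described. A probe set entered the test if 4 or more arrays read over 4 log2, which kept 23905. They were fitted in limma 3.58.1 (R 4.3.3) with a one-way layout of all 16 arrays (12 residual and 2.63 prior degrees of freedom) and Benjamini-Hochberg adjustment at 0.05 over all of them. The p-values measure the spread between 4 mice per group, pooled over the 4 groups, and 4 mice limit the precision. The code was tested on simulated data. The brightest probe set stands for a gene in the partner lists.

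Named were all members, App, up to 3 genes per partner list by p in SAMP8 minus Control where none passed, and the 5 nearest profiles; others are marked, or are the extremes of a list, seen before they were picked. Members, lists and comparisons were chosen with earlier results of these data known. Alternatives changed the filter, normalization, arrays, block, prior, weights and covariate. Figures used Python 3.11.15 and matplotlib 3.10.9.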

Additional observations from a re-analysis of the deposited data

Results flagged for a closer look

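In 7 of 80 groups of 4 arrays, 1 array lay far from the other 3 for a dynein probe set, where chance gives about 4 (1 in 20). Of these, 5 are low readings of Control 4: Dync1h1 1416648_at at 11.05 against 11.56 to 11.63 on the other Control arrays, Dync1li2 1433925_at at 10.53 against 11.06 to 11.15, Dynll1 1456125_a_at at 13.54 against 13.92 to 13.98, Dynll1 1440278_at at 5.57 against 6.31 to 6.45, and Dynlt3 1449929_at at 11.81 against 12.36 to 12.42. Dync1i1 1416361_a_at read 10.56 on Random antisense 4, below 10.75 to 10.77 on the other Random antisense arrays. Dync1li2 1433925_at read 11.29 on Random antisense 1, the array whose treatment label says no treatment, above 11.02 to 11.04 on the others.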

How the results depend on the processing

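The difference of Dync1li1 between AbPP antisense and Random antisense chose the genes, so its values under other settings are a description only. They ran from -3.34 without AbPP antisense 1 to -2.79 with array weights, and from -3.34 to -2.86 when 1 array was left out. Changing the filter, the prior or the replicate block, or leaving out a Control or SAMP8 array, cannot move this difference of means. It was -3.08 in each of those fits. The count of dynein probe sets passing in that comparison, 1 in the fit of all arrays, was 0 when the other 8 arrays were left out of the fit and 2 without Control 4 and AbPP antisense 4, and ran from 1 to 2 over fits without 1 array. Between AbPP antisense and SAMP8 it was 2 without Control 4 and AbPP antisense 4 and ran from 1 to 2 over fits without 1 array. The added probe set was each time 1433926_at of Dync1li2. Calls over all probe sets rose in those fits too. Without AbPP antisense 3 they were 3.75% against Random antisense and 5.39% against SAMP8. Without Control 4 and AbPP antisense 4 they were 0.838% and 1.71%. Partner genes passing, 0 in the fit of all arrays, were 1 (Hook1) without Control 4 and AbPP antisense 4 between AbPP antisense and Random antisense, and ran from 0 to 1 over fits without 1 array (Hook2, without AbPP antisense 3). Between AbPP antisense and SAMP8 they were 2 (Dynlrb2 and Hook1) without both arrays. They ran from 0 to 3 over fits without 1 array. Dynlrb2 was added without Control 4, where 0.583% of all tested probe sets passed. Dctn5, Dynlrb2 and Hook2 were added without AbPP antisense 3, where 5.39% of all passed. Nothing is read from these counts. The counts of members and partners between SAMP8 and Control, and between Random antisense and SAMP8, were 0 under every setting run. Replicate numbers recur across groups but were not taken to pair mice: 9 of 24 same-numbered pairs of arrays had deviations that correlated over 0.1 (range -0.27 to 0.24), 5 of 16 arrays correlated best with their own number, and the block changed no member or partner count. The beta-actin covariate moved 7 single-probe-set differences by more than the spread between mice. Of those not given above, they are 0.32 for Dync1i2, 0.21 for Dynlt3 1420614_at, -0.71 for Dync1li2 1433926_at and -0.15 for Dynlt3 1449928_at, each against SAMP8. The cause of these changes was not tested. Scanned intensities were not reprocessed, sequence coverage of the probe sets was not examined, and protein levels were not analysed here.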

Other observations

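The genes next to Dync1li1 on its chromosome were looked at as values, with neighbours taken from the order of genes in a RefSeq table of assembly GRCm38.p6. Of the 10 protein-coding genes on each side, 12 in all had a tested probe set. Their differences between AbPP antisense and Random antisense ran from -0.17 for Gpd1l to 0.44 for Rbms3 around a median of 0.01, against -3.08 for Dync1li1. Cnot10, the nearest gene on one side, was 0.43 higher on its brightest probe set, with all 4 AbPP antisense arrays above the Random antisense arrays, and Cmtm6, the nearest on the other, differed by 0.34 with overlapping arrays. None of the 12 passed the threshold in limma, and 1 had an unadjusted p under 0.05, as had 2935 of all 23905 tested probe sets.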
